A study of Mus musculus with 1920 samples.

Results

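The genes described here code for the proteins of the cytosolic ribosome. They were taken by name from the count table: every protein-coding gene whose symbol is Rpl or Rps followed by a number, with Rplp0, Rplp1, Rplp2 and Rpsa, leaving out the kinases named Rps6k and the pseudogenes. The rule found 86 genes among 48709, of which 52 carry large subunit names and 34 small subunit names. It used names only and no measured value. It also takes in Rps19bp1 and Rpl7l1, which are not structural ribosomal proteins, and the paralogs Rpl10l, Rpl3l, Rpl39l, Rpl22l1, Rpl36al, Rps27l and Rps27rt. It leaves out genes such as Fau and Rack1, whose products belong to the ribosome under other names.

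A ribosomal protein is made in the cytosol, carried into the nucleolus, assembled with ribosomal RNA into a large or a small subunit, and exported again. Many of these mRNAs begin with a C followed by a run of pyrimidines, the 5′ terminal oligopyrimidine (TOP) motif, through which the growth kinase complex mTORC1 and the repressor Larp1 set how strongly they are translated. Microglia are the macrophages that live in brain and spinal cord. They seldom divide at rest, and they enlarge, divide and secrete after injury.

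Reads were counted in microglia of CD1 mice aged 16 weeks that had been sorted singly into wells. Libraries were made by Smart-seq2, which copies whole transcripts and does not tag single molecules. The untreated regions were Spinal Cord, Corpus Callosum, Facial nucleus, Cerebellum, Hippocampus and Cortex. After facial nerve axotomy, in which the nerve is cut while the cell bodies in the brainstem stay in place, cells came from the facial nucleus at day 3 and at day 14. The label for tissue reads facial nerve in these wells, while the source label reads facial nucleus. Cuprizone, a toxicant that kills oligodendrocytes, was given for the last 2 groups, whose cells came from the corpus callosum at the demyelination stage and at the remyelination stage. The labels give no genotype, transgene, dose or sex.

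There were 4 replicates in each of the 10 groups, called mice below. The design text puts the number of mice at 3 to 4 for each condition, with the untreated regions taken from the same animals, so if replicates shared a mouse the SDs and p-values are too small. Each of the 5 plates held 2 groups. The 2 cuprizone stages were on 1 plate and the 2 axotomy days on another, and among the untreated regions hippocampus was beside cortex, facial nucleus beside cerebellum and spinal cord beside corpus callosum. No injured group shared a plate with its untreated region, so plate and injury cannot be told apart. After filtering, 1644 of 1900 cells remained, 29 to 47 per mouse, and their counts were summed per mouse to 5298853 to 19964472 reads. Intervals from such counts would cover counting error only, since PCR copies were not marked.

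All 12 microglia markers were read in every group, with mean summed levels from 33819 CPM in remyelination to 61413 in cortex. CPM is the read count of a gene relative to the total of its sum, scaled here by the trimmed mean of M values (TMM) over all 40 sums. The sort leaves other cells possible: monocyte markers summed to 1226 CPM in demyelination (563 to 2118 over mice) against 82.4 in untreated corpus callosum (14.3 to 170.4). Of the 8 monocyte markers Ly6c2 and F13a1 had no read in demyelination, and Ly6c2 had none in 4 other groups either. Of the 20 wells with no cell, none passed the filters. They held a median of 524.5 gene counts and of 1 ribosomal protein read.

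Reads counted for ribosomal protein genes were a small part of each library. How reads that map to several places were counted is not given, so the share of their mRNAs is uncertain. The share of gene counts was 0.268% ± 0.0211 in cortex, 0.253% ± 0.0217 in cerebellum and 0.274% ± 0.0348 in facial nucleus (SD, n = 4 throughout). It was 0.323% ± 0.0261 in hippocampus, 0.336% ± 0.0232 in spinal cord and 0.370% ± 0.0961 in corpus callosum. In the injured groups it was 0.508% ± 0.0703 at day 3 and 0.372% ± 0.0540 at day 14 after axotomy, 0.763% ± 0.0405 in demyelination and 0.726% ± 0.0496 in remyelination. In order of level, the mice of neighbouring groups overlapped, with the exception of day 3 and remyelination, and every cuprizone mouse lay above every mouse of the other 8 groups.

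By mouse the share was 0.492%, 0.321%, 0.396% and 0.272% in untreated corpus callosum, the widest spread of any group. It was 0.753%, 0.770%, 0.716% and 0.813% in demyelination. In remyelination it was 0.742%, 0.652%, 0.753% and 0.757%. All 8 cuprizone mice were therefore above all 4 untreated corpus callosum mice. One cell of corpus callosum replicate 1, the only kept cell there without a Tmem119 read, had a share of 2.12%. Without it that mouse had 0.432%.

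For the facial nucleus the values were 0.235%, 0.267%, 0.320% and 0.273% in untreated mice, 0.466%, 0.584%, 0.550% and 0.434% at day 3, and 0.448%, 0.332%, 0.373% and 0.334% at day 14. Every mouse of both axotomy groups was above every untreated one, and the day 3 and day 14 mice overlapped. Shares are relative to all other genes in the same cells. No test was made of a total over chosen genes.

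Against the spike-in RNA added to each well the order changed. Ribosomal protein counts per spike-in count were 0.0322 ± 0.00608 in corpus callosum, 0.0448 ± 0.00729 in demyelination and 0.0261 ± 0.00755 in remyelination. They were 0.0196 ± 0.00351 in facial nucleus, 0.0319 ± 0.00943 at day 3 and 0.0239 ± 0.00334 at day 14. On this scale the mean of demyelination lay above that of corpus callosum and the mean of remyelination below it, both with overlapping mice. Demyelination replicate 1 had 0.0356, below corpus callosum replicate 3 with 0.0365. All gene counts per spike-in count were 8.90 in corpus callosum, 5.90 in demyelination and 3.58 in remyelination, and the median number of genes read per cell was 2925, 2111 and 1491 in the same order. Fewer molecules per cell and a lower capture of them cannot be told apart here. Between corpus callosum and the cuprizone groups, a difference between plates, as in the spike-in amount, cannot be told apart from these either.

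**Figure D1:**
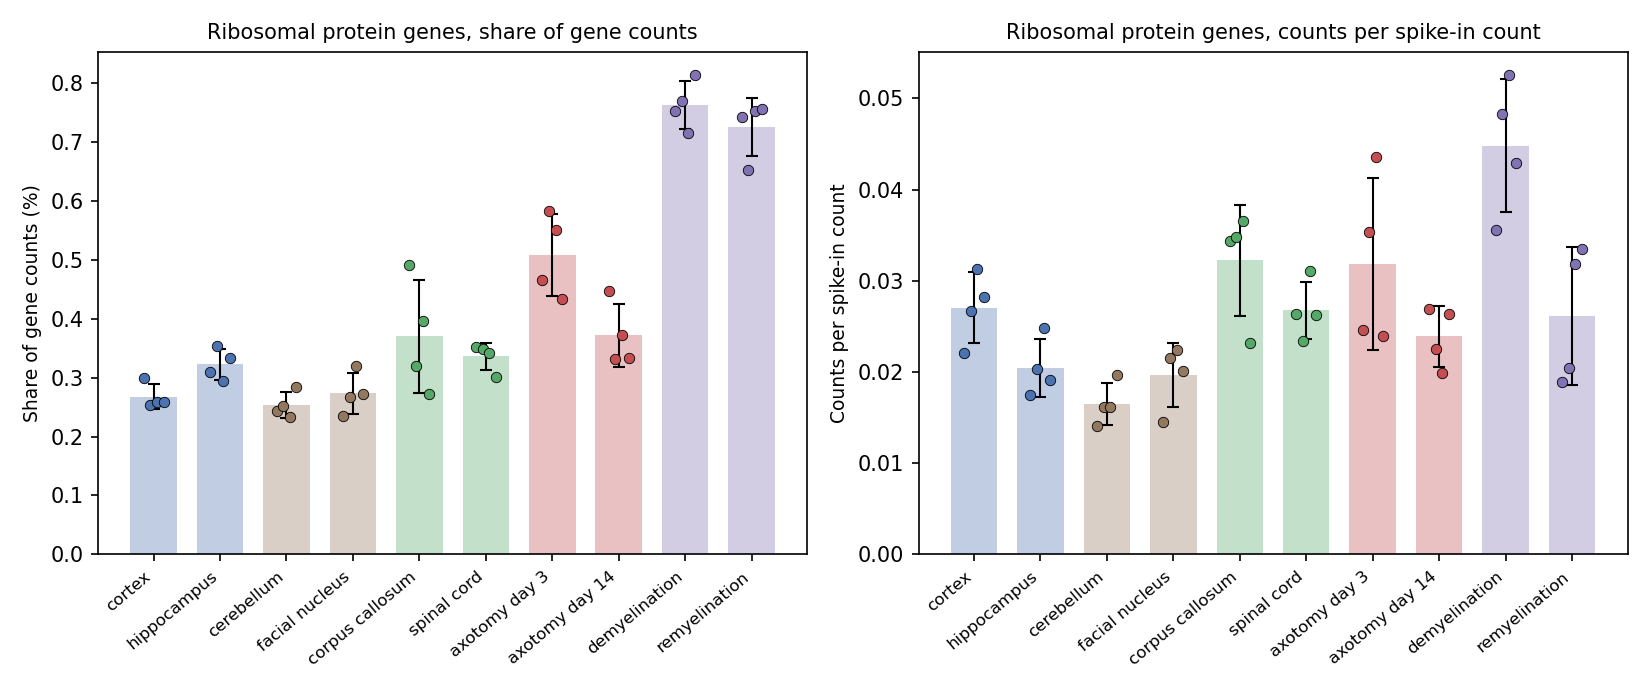
Left, counts of the 86 ribosomal protein genes as a percent of gene counts; right, the same counts per spike-in count; groups on the horizontal axis, bars the mean of 4 mice, error bars the SD, points the mice. On the left both cuprizone groups stand at 0.763% and 0.726% above all others, while on the right remyelination (0.0261) is below untreated corpus callosum (0.0322).

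Cell by cell, no kept cell lacked a ribosomal protein read. The median cell had a share of 0.287% in corpus callosum, 0.697% in demyelination and 0.664% in remyelination, and the 10th percentile of demyelination cells was 0.342%. With each cell thinned to 20000 reads, a cell held reads of 17.1 ± 1.62 of the 86 genes in corpus callosum, 28.0 ± 0.645 in demyelination and 23.9 ± 3.11 in remyelination. Unthinned medians were 32, 49 and 40.8 genes. The same thinned count was 14.4 ± 1.34 in facial nucleus, 20.5 ± 1.70 at day 3 and 16.5 ± 0.946 at day 14.

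Large and small subunits were counted separately. Counts from large subunit genes divided by those from small subunit genes ranged from 1.10 ± 0.0721 in remyelination to 1.53 ± 0.0712 in cerebellum, with 1.32 ± 0.131 in corpus callosum and 1.25 ± 0.0647 in demyelination.

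A few genes supplied most of the reads. Of 2001000 ribosomal protein counts, the 5 leading genes gave 44.8% and the 10 leading genes 63.3%. Rpl4, whose product lines the tunnel through which the new chain leaves, had 308578 counts, and Rps3, at the mRNA entry of the small subunit, had 227877. Per kilobase of exon, the 5 highest levels over all 40 sums included Rpl4 with 499 CPM per kb, Rpl8, next to the catalytic centre, with 258, Rplp1 of the stalk with 210 and Rpl32 with 176. At the other end were Rpl10l (0.0376 CPM per kb, read in 4 of 40 sums), Rpl23a (0.216), Rpl29 (0.490), Rpl24 (0.836) and Rpl3l (1.04). In all 40 sums, 65 of the 86 genes had a read.

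Most ribosomal protein genes have processed pseudogenes, copies whose sequence is close to that of the mRNA. To see how much sequence each gene shares, its transcript was cut into overlapping words of 50 bases, and the share of words found in transcripts of other annotated genes was counted. At least 50% of words were shared in 42 of the 86 genes (48.8%), against 8.70% of all protein-coding genes, and the median was 49.2% against 0. The 42 genes gave 18.4% of ribosomal protein counts and had a median of 7.51 CPM per kb, against 20.5 for the other 44. Across the 86 genes, which are not independent replicates, Spearman's rho of shared words and CPM per kb was -0.42.

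Rps3 shared 2.96% of its words with other genes and Rpl8 7.86%. For Rpl9 the figure was 93.3% and for Rps13 83.0%. How reads that map to several places were counted is not given in the sources used here, so the level of a gene with many shared words is uncertain.

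**Figure D2:**
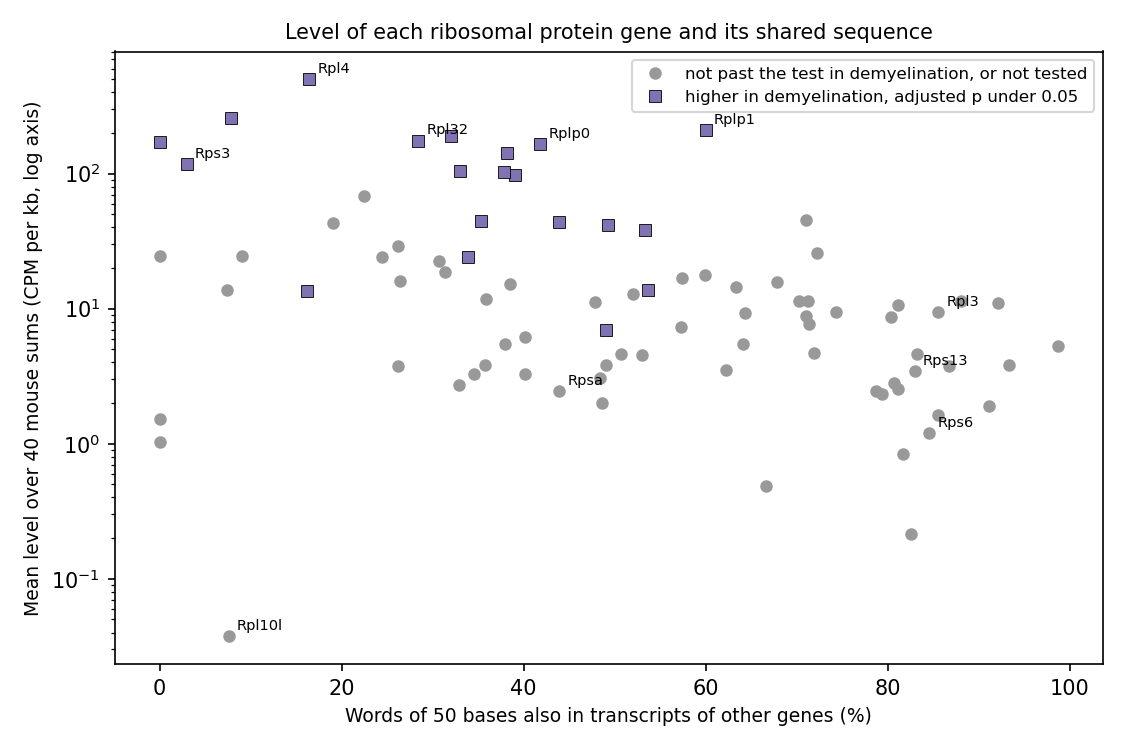
Mean level over 40 sums in CPM per kilobase (log axis) against the percent of 50-base words of the transcript found in other genes, 1 point per ribosomal protein gene; squares mark the genes that rose in demyelination. The 44 genes with under 50% of words shared have a median of 20.5 CPM per kb and the other 42 a median of 7.51.

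The first bases of the transcripts are shown because the TOP motif lies there. In the GENCODE vM21 transcripts of build GRCm38, 12 of the 86 genes (14%) began at the annotated start with a C and at least 4 more bases that are C or T, against 2.13% of all protein-coding genes. Such a run began within the first 10 bases in 31 (36.0%) against 16.0%. The runs counted are in capitals in the lines below, which give the first 25 bases of exon 1 in the 5′ untranslated region. Rpl32 is at chr6:115808723-115808747 (minus strand), Rpl4 at chr9:64173375-64173399 (plus) and Rps15a at chr7:118115653-118115677 (minus). They are among the 4 genes of the 12 that rose in demyelination, beside 20 of all 82 ribosomal protein genes tested (24.4%). A link of the motif to the rise was not tested. Rps3 at chr7:99483714-99483738 (minus) and Rplp0 at chr5:115559467-115559491 (plus) rose too and have no such run at the annotated first base.
Rpl32: CTTCCTTCTTCCTCggcgctgccta
Rpl4: CTTTTCCTgtgggagcagccgggta
Rps15a: CTCCCgaaagggggtgtgtgtgtgt
Rps3: atttcccatgaacacttgcaagggt
Rplp0: ggaccgcctggttctcctataaaag
A match is a description of these letters, and an annotated start can lie upstream of the base where transcription begins.

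The first injury comparison set demyelination, when oligodendrocytes are lost, beside untreated corpus callosum. With TMM scaling 20 ribosomal protein genes rose and none fell, out of 82 that could be tested. Of all 14057 genes, 3.08% rose and 2.08% fell (edgeR quasi-likelihood test, Benjamini-Hochberg adjusted p under 0.05 over all genes). The 82 genes had a median log2 fold change of 1.51, against -0.33 for all genes, and 63 were higher and 19 lower. With spike-in library sizes the median was 0.35 and 51 were higher and 31 lower. Every demyelination mouse lay above every untreated mouse in 41 genes (8.95% of all genes) and below in 3 (14.5% of all genes). Rpl10l, Rpl23a, Rpl29 and Rpl3l had too few reads.

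Among the small subunit genes, Rps3 had 423, 312, 498 and 289 CPM in untreated mice and 1199, 1329, 1118 and 1095 in demyelination. The groups were apart, with a log2 fold change of 1.61 (SE 0.230, edgeR adjusted p = 0.000402).

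Rps14, a protein of the platform, had 153, 86.6, 131 and 63.6 CPM in untreated mice and 551, 508, 482 and 387 in demyelination. Replicates 1 and 3 of untreated corpus callosum were the higher ones, and still far below the lowest treated mouse. The log2 fold change was 2.13 (SE 0.329, edgeR adjusted p = 0.000881).

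Rps26, which touches the mRNA upstream of the start codon, went from 39.1, 18.2, 17.6 and 18.9 CPM to 147, 123, 127 and 142, a log2 fold change of 2.49 (edgeR adjusted p = 0.00626). Rps9, which bears on decoding accuracy, rose by 1.35 on the log2 scale (edgeR adjusted p = 0.00226). Rps15 rose by 1.92, Rps15a by 1.92 and Rps19, the gene most often mutated in Diamond-Blackfan anaemia, by 1.99, with edgeR adjusted p from 0.0160 to 0.0339.

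Of the large subunit genes, Rpl32 had the lowest p. Its levels were 136, 57.9, 129 and 44.6 CPM in untreated mice and 604, 523, 518 and 537 in demyelination, a log2 fold change of 2.55 (SE 0.346, edgeR adjusted p = 0.000239). Rpl4 had 836, 338, 839 and 305 CPM against 1713, 2094, 1557 and 2208, a log2 fold change of 1.69 (SE 0.291, edgeR adjusted p = 0.00222). In both genes replicates 1 and 3 of the untreated mice were well above replicates 2 and 4, and the groups did not overlap.

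The stalk of the large subunit calls in the elongation factors. Its base Rplp0 had 237, 138, 226 and 124 CPM in untreated mice and 608, 751, 700 and 673 in demyelination, and rose by 1.89 on the log2 scale (SE 0.262, edgeR adjusted p = 0.000307). Rplp1 rose from 81.6, 55, 104 and 57.3 CPM to 194, 196, 284 and 284, by 1.66 (edgeR adjusted p = 0.0123). Rplp2 did not pass, with 42.9, 15.6, 48.7 and 17.8 CPM against 136, 90.5, 89.6 and 77.4, although its groups did not overlap (1.63, edgeR adjusted p = 0.0925).

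Other large subunit genes that rose, with log2 fold change and edgeR adjusted p in brackets, were Rpl23 at the subunit interface (2.78, 0.0110), Rpl8 (1.61, 0.00661), Rpl7 (1.75, 0.0146), Rpl41 (1.79, 0.0311), Rpl14 (2.07, 0.0318) and Rpl39 at the tunnel exit (2.91, 0.0478). Of the genes with under 50% of words shared, 17 of 42 tested rose, and of those with more, 3 of 40. The median log2 fold changes of these 2 sets were 1.62 and 1.08.

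The 5 lowest fold changes included those of Rps13, Rpl9, Rpl39l and Rpl24, and none of the 5 passed. Rps13 had 12.7, 30.5, 20.0 and 2.55 CPM in untreated mice and 0.643, 1.01, 0.687 and 1.29 in demyelination, a log2 fold change of -4.19 (SE 1.56, edgeR adjusted p = 0.118). Rpl9 had 8.05, 20.4, 20.5 and 57.5 CPM against 6.43, 2.02, 2.82 and 1.67, a log2 fold change of -3.09 (edgeR adjusted p = 0.310). These 2 genes are among the 3 with every demyelination mouse below. The highest fold change, 3.95 for Rps23, did not pass either (edgeR adjusted p = 0.187), with 1.19 to 22.8 CPM among demyelination mice.

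By role, several well-known members did not pass, which does not show that they were unchanged. Rps6, the substrate of the S6 kinases, had 1.64, 2.20, 1.08 and 0.102 CPM in untreated mice and 0.643, 1.08, 2.14 and 2.81 in demyelination (edgeR adjusted p = 0.938). Rpl5 and Rpl11, which with 5S RNA can bind Mdm2 and so stabilise p53, had log2 fold changes of -1.08 and -0.79 (edgeR adjusted p = 0.807 and 0.83). Rpsa, the laminin receptor protein, stood at 1.41 (0.664), Rpl10, which joins the large subunit late, at -0.09 (0.982). The groups overlapped in these 5 genes. Rps6 and Rpsa had few reads, Rpsa with a mean of 3.06 CPM in untreated mice and 8.37 in demyelination. Of the words of Rpl10 92.1% are shared with other genes, of those of Rpl11 62.2% and of Rpl5 48.6%. Rpl38, which favours translation of some Hox mRNAs, had 10.1, 2.09, 4.69 and 1.73 CPM in untreated mice and 26.5, 19.6, 23.5 and 17.1 in demyelination (2.19, 0.339). Rpl13a, which can be released to silence inflammatory mRNAs, had 25.2, 32.6, 29.9 and 20.7 CPM against 72.7, 133.8, 53.5 and 105 (1.72, 0.118). In both genes every demyelination mouse lay above every untreated one.

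Paralogs of a pair often differed in level. Per kilobase over all sums, Rps27l had 68.3 CPM against 5.28 for Rps27, 98.7% of whose words are shared, and Rpl36al had 14.5 against 1.64 for Rpl36a. Rpl22 had 24.2 against 7.29 for Rpl22l1, Rpl39 13.6 against 1.51 for Rpl39l, and Rpl3 9.37 against 1.04 for the muscle paralog Rpl3l. Shared words made up 85.5% of Rpl36a, 63.3% of Rpl36al, 24.5% of Rpl22 and 57.3% of Rpl22l1. For Rpl39 and Rpl3 the figures were 16.2% and 85.6%, and for Rpl39l and Rpl3l 0%. The part of shared sequence in these levels was not tested. In demyelination Rpl36al had 64, 56.1, 40.9 and 43.3 CPM against 10.4, 5.51, 8.93 and 10.9 in untreated mice, apart but not past the threshold (log2 fold change 2.48, edgeR adjusted p = 0.0833). Rpl22 (1.59, 0.110), Rps27l (1.58, 0.116) and Rps4x (1.61, 0.0796) were above in every mouse and did not pass. Rpl26 ranged from 0.992 to 146 CPM among demyelination mice. The assembly factor Rpl7l1 (1.03, 0.398) and the Rps19-binding Rps19bp1 (0.99, 0.656) did not pass.

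**Figure D3:**
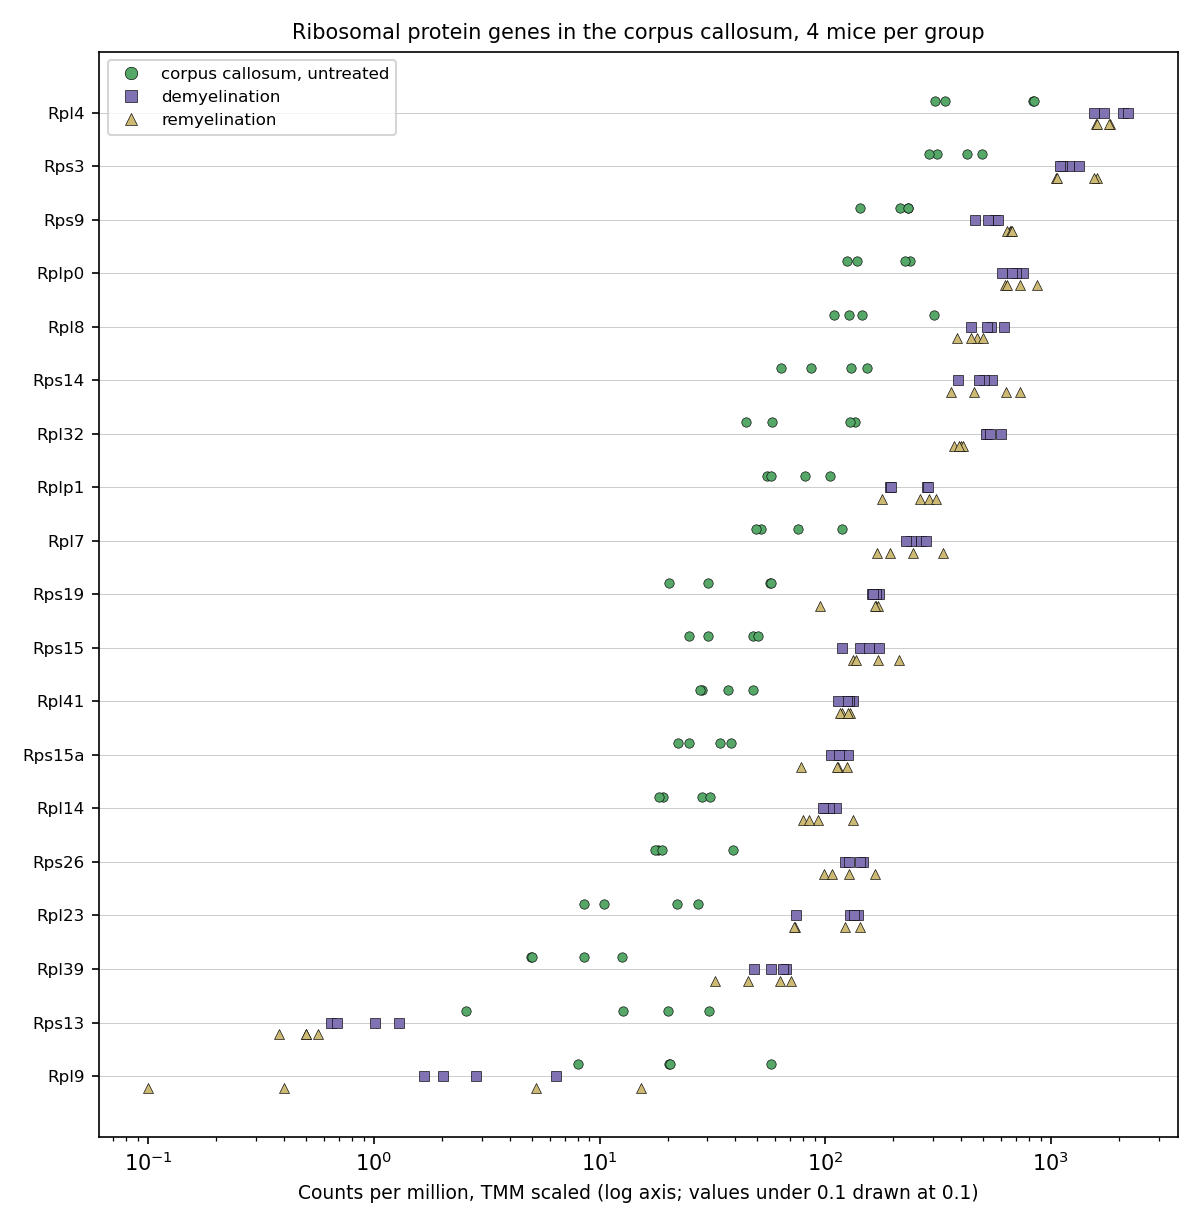
Level in CPM (log axis, TMM scaled) of 17 of the 20 genes that rose in demyelination and of Rps13 and Rpl9, in untreated corpus callosum, demyelination and remyelination; points are the 4 mice of each group. In all 17 genes the demyelination points lie above the untreated ones, for Rpl32 at 518 to 604 against 44.6 to 136 CPM, while Rps13 lies below (0.643 to 1.29 against 2.55 to 30.5); with spike-in library sizes 9 of the remyelination changes plotted as higher turn negative.

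How far the calls carry depends on scaling and on the control mice. TMM factors were 0.650 to 0.755 in the cuprizone sums and 0.962 to 1.29 in all others, and the median of all genes was -0.33 with them, -0.97 with library totals alone and -1.55 with spike-in library sizes. The ribosomal protein median was 1.51, 0.88 and 0.35 in the same order, which is 1.84, 1.86 and 1.90 above that of all genes. The number that rose was 9 with library totals alone and 1 with spike-in library sizes, where Rpl32 passed (1.40, edgeR adjusted p = 0.0392) and Rps13 fell (-5.50, edgeR adjusted p = 0.0448). Over all genes the split of higher to lower calls was 433 to 292 with TMM, 206 to 597 with library totals alone and 90 to 1047 with spike-ins. DESeq2 called 33 higher and 2 lower, the latter Rpl9 and Rps13. Shares of all genes called by DESeq2 are not given here or below, so its counts have no background beside them. Leaving out corpus callosum replicate 4 left 10 genes, replicate 2 left 11, and demyelination replicate 3 left 13. Rpl32, Rpl4, Rplp0, Rps14, Rps26 and Rps3 passed in each of 20 settings, the reported one included, that did not use spike-ins.

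Monocyte markers were higher in the same mice, as given for the sort, and their part in the result was not tested. Within demyelination the share was 0.781% ± 0.140 in the 92 cells with a read of the microglia gene Tmem119 and 0.755% ± 0.0758 in the 69 without, both above the 0.355% ± 0.0726 of Tmem119-positive corpus callosum cells. Summed dividing-cell markers were 456 CPM in demyelination (222 to 842) and 176 in corpus callosum (34.6 to 265.5), while cells with a Mki67 or Top2a read were 17 of 161 (10.6%) and 26 of 173 (15.0%). The share was 0.726% ± 0.0449 in the 13 demyelination cells with a Mki67 read and 0.766% ± 0.0424 in those without. Without cells that had a Mki67 or Top2a read the share in demyelination was 0.767% and 16 genes rose.

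Remyelination was compared with the same untreated mice, so its values are not independent of those above. With TMM scaling 19 of 82 genes rose (2.51% of all genes) and none fell (0.605% of all genes), all 19 among the 20 of demyelination. With TMM the median log2 fold change was 1.33 against -0.31 for all genes, and with spike-in library sizes it was -0.50 against -2.24, with 17 genes higher and 65 lower. Every remyelination mouse lay above every untreated one in 39 genes (5.53% of all genes) and below in 4 (12.1%). Rps3 had 1606, 1049, 1550 and 1067 CPM (log2 fold change 1.80, SE 0.231, edgeR adjusted p = 0.000153), with replicates 1 and 3 the higher ones. Rplp0 had 864, 626, 726 and 638 CPM (1.98, SE 0.263, edgeR adjusted p = 0.000215).

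Rpl32 had 374, 398, 406 and 391 CPM in remyelination, a narrow range between the untreated and the demyelination mice (2.10, SE 0.340, edgeR adjusted p = 0.00150). Rps9 had 656, 636, 668 and 670 CPM (1.68, edgeR adjusted p = 0.000377), above every demyelination mouse. Rps14 (2.33), Rps26 (2.40), Rpl23 (2.58) and Rpl4 (1.56) rose as well. Rpl39 was the gene called in demyelination alone, with 62.8, 45.4, 70.4 and 32.5 CPM in remyelination (2.77, edgeR adjusted p = 0.0639).

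The 4 genes below in every remyelination mouse included Rps13, Rpl11 and Rpl34, and none of the 4 passed. Rps13 had 0.563, 0.499, 0.381 and 0.5 CPM (log2 fold change -5.05, SE 1.63, edgeR adjusted p = 0.0882). The edgeR adjusted p was 0.451 for Rpl11 (-2.33) and 0.682 for Rpl34 (-1.20). With library totals alone 6 genes rose, and with spike-in library sizes none rose and 4 fell, among them Rps13, Rpl9 and Rpl27a. Over all genes the split was 353 to 85 with TMM, 148 to 175 with library totals alone and 57 to 2800 with spike-ins. DESeq2 called 33 higher and 3 lower. Without corpus callosum replicate 2 or replicate 4 the number was 10, and without replicate 3 it was 12.

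Border macrophage markers summed to 436 CPM in remyelination (246 to 706), the highest mean of the 10 groups, and to 133 in corpus callosum (54.8 to 270.2). Cd163 and Lyve1 of the 8 markers were at 0 in remyelination. Monocyte markers summed to 138 CPM (1.41 to 320.8) and dividing-cell markers to 81.0 (1.25 to 269.6). The ribosomal protein share was 0.673% ± 0.0527 in the 64 remyelination cells with a Tmem119 read and 0.763% ± 0.0752 in the 65 without, and both were above that of Tmem119-positive corpus callosum cells. The part of other cells in the result was not tested.

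Between remyelination and demyelination, which shared a plate, no ribosomal protein gene passed edgeR's test or DESeq2's (0.0427% of all genes passed edgeR's). An unadjusted edgeR p under 0.05 was found in 1 of 82, against 1985 of all 14057 genes. The median log2 fold change was -0.09 against 0.03 for all genes. The lowest adjusted p was that of Rpl27a (-2.08, edgeR adjusted p = 0.304).

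**Figure D4:**
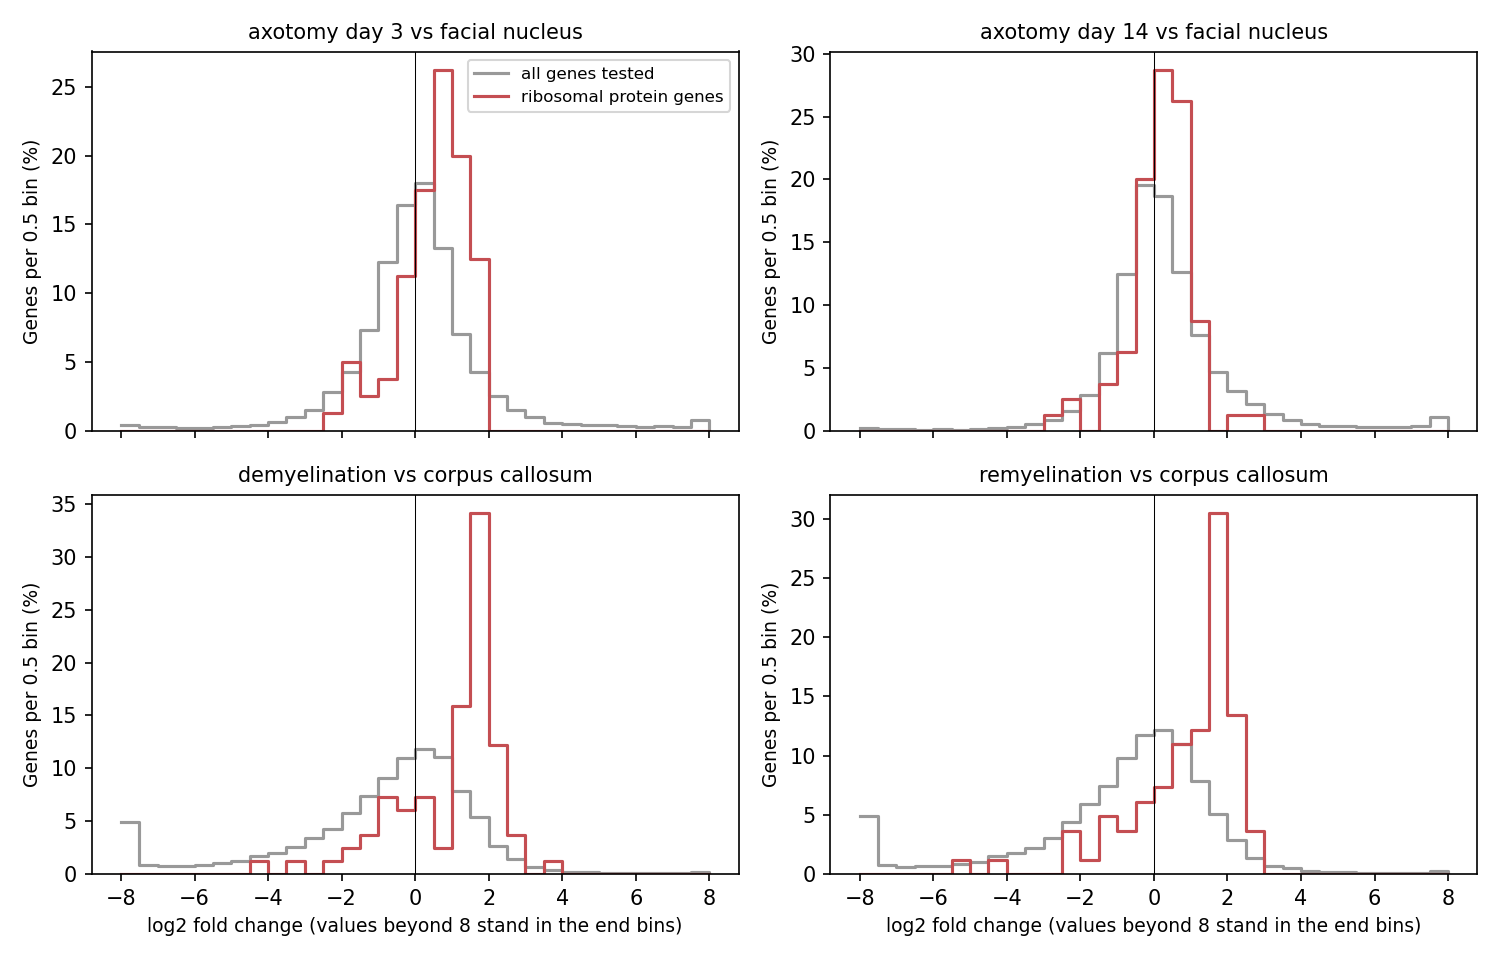
Distribution of log2 fold changes for the ribosomal protein genes tested and for all genes tested, in 4 comparisons; the vertical axis is the percent of genes per bin, and values beyond 8 are put in the end bins. With TMM scaling the ribosomal protein genes centre at 1.51 in demyelination and 1.33 in remyelination while all genes centre at -0.33 and -0.31; with spike-in library sizes these medians are 0.35 and -0.50.

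Axotomy at day 3 was compared with untreated facial nucleus to ask about microglia around neurons whose axons were cut far away. With TMM scaling 2 genes rose out of 80 tested, Rpl32 among them, and none fell. Of all 19319 genes, 0.14% rose and 0.00518% fell. Rpl32 had 66.0, 52.1, 78.3 and 57.3 CPM in untreated mice, 229, 241, 214 and 192 at day 3 and 126, 54.6, 99.8 and 88.2 at day 14. Day 3 mice lay above all others, and day 14 overlapped the untreated mice. The log2 fold change at day 3 was 1.80 (SE 0.355, edgeR adjusted p = 0.0495).

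The next genes in order were those that led in the corpus callosum: Rps3 with 143, 169, 301 and 234 CPM against 453, 910, 556 and 421 (1.48, edgeR adjusted p = 0.0567), Rpl4 (1.19, 0.0761) and Rplp0 with 65.9, 95.0, 119 and 133 CPM against 319, 352, 386 and 209 (1.63, 0.0849). Rpl7 had 28.9, 48.1, 42.2 and 37.4 CPM against 109, 122, 112 and 107 (1.53, 0.247). None of these groups overlapped. The median of the 80 genes was 0.67 against 0.04 for all genes, and 61 were higher and 19 lower. An unadjusted edgeR p under 0.05 was found in 17 of the 80, against 1610 of all 19319 genes. Every day 3 mouse was above in 20 genes (3.1% of all genes) and below in 1, Rpl9 (1.99% of all genes).

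**Figure D5:**
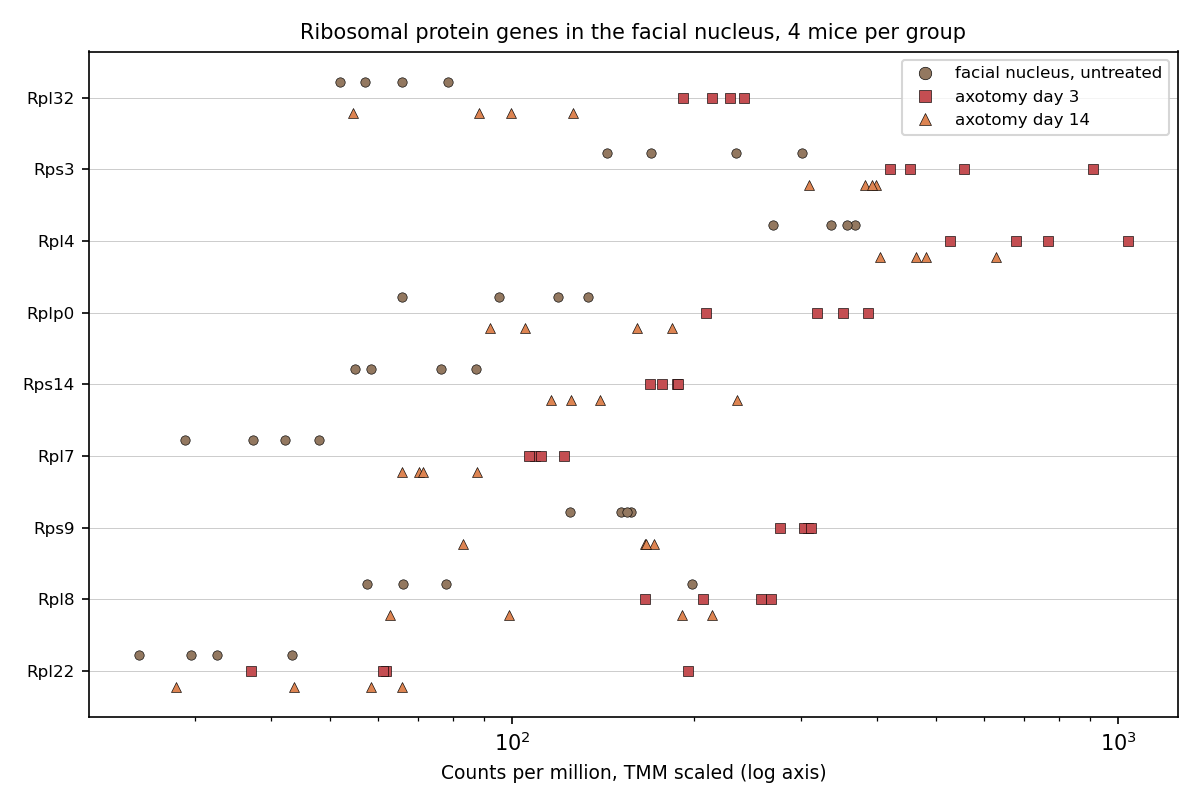
Level in CPM (log axis, TMM scaled) of 9 of the 12 ribosomal protein genes with the lowest p at day 3, in untreated facial nucleus and 3 and 14 days after axotomy; points are the 4 mice of each group. Rpl32 lies at 192 to 241 CPM at day 3 against 52.1 to 78.3 in untreated mice and 54.6 to 126 at day 14.

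The day 3 calls were few and near the threshold. Rpl32 was lost when any 1 of the 8 mice was left out (edgeR adjusted p 0.0952 to 0.238). DESeq2 called 10 genes, among them Rpl32, Rpl4, Rpl7, Rplp0, Rps14, Rps26, Rps3 and Rps9, while edgeR with spike-in library sizes and limma with equal weight for each cell called none. How many of all genes these settings called is not given here. The median was 0.44 with library totals alone and 0.24 with spike-ins, against -0.17 and -0.38 for all genes.

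Genes of dividing cells were read in more cells at day 3. Reads of Mki67 or Top2a were found in 48 of 168 cells (28.6%) at day 3, 21 of 161 (13%) in facial nucleus and 19 of 171 (11.1%) at day 14, and the summed dividing-cell markers were 827 CPM at day 3 (438 to 1253) against 82.0 (6.87 to 177). The ribosomal protein share at day 3 was 0.643% ± 0.127 in cells with a Mki67 read and 0.465% ± 0.0685 in cells without. Without the cells that had a Mki67 or Top2a read, the share at day 3 was 0.468% ± 0.0651 against 0.272% ± 0.0404 in facial nucleus. Then no gene passed, with a log2 fold change of 1.59 for Rpl32 (edgeR adjusted p = 0.337). Mitochondrial reads were 4.04% of gene counts at day 3 and 1.35% in facial nucleus. With these, the ribosomal protein reads and Apoe left out of the library sizes, Rpl32 still passed (edgeR adjusted p = 0.0476).

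At day 14 no gene passed edgeR's test against facial nucleus (0.0% of all genes), and DESeq2 called Rpl7 and Rps14. The unadjusted edgeR p was under 0.05 in 4 of 80, against 1090 of all 19319 genes. The median was 0.28 against 0.11 for all genes, and 7 genes were above in every mouse (2.28% of all genes), with Rps14 at the lowest p (1.16, edgeR adjusted p = 0.629). On their shared plate, day 14 set against day 3 gave no gene past edgeR's test (0.0259% of all genes), and DESeq2 called 2 genes lower at day 14, Rpl32 among them. Here 6 of 80 had an unadjusted edgeR p under 0.05, against 1275 of all 19319 genes. In 14 genes every day 14 mouse lay below every day 3 mouse (2.34% of all genes), and the median was -0.44 against 0.10.

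Whether the demyelination change was larger than the day 3 change was tested by the difference of the 2 effects in 1 fit of all 10 groups. None of 84 genes passed edgeR's test (0.423% of all genes), and DESeq2 called 4, Rpl23, Rpl36al, Rpl39 and Rpl39l. An unadjusted edgeR p under 0.05 was found in 2 of the 84, against 5893 of all 26684 genes. The lowest p was that of Rpl23 (difference of log2 fold changes 2.12, SE 0.852, edgeR adjusted p = 0.139). The median difference was 0.56, against -1.44 for all 26684 genes of this fit. The separate fits held fewer genes, 14057 for demyelination and 19319 for day 3, with all-gene medians of -0.33 and 0.04. The -1.44 therefore covers another set of genes than those medians.

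Among the 6 untreated regions no ribosomal protein gene differed by edgeR's test over all regions (0.1% of all 22907 genes), and DESeq2 called Rps3 and Rps4x. The unadjusted edgeR p was under 0.05 in 3 of 83, against 2368 of all 22907 genes. Rps3 came nearest (edgeR adjusted p = 0.102): it had 199, 151, 201 and 204 CPM in cerebellum, below every mouse of cortex (341, 245, 315 and 290) and of hippocampus (492, 507, 351 and 360). In spinal cord it had 315, 376, 319 and 323 CPM, and in corpus callosum 380 ± 97.7. Facial nucleus, on the plate of cerebellum, was low too: Rps3 had 212 ± 70.6 CPM there against 189 ± 25.2 in cerebellum, with overlapping mice.

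Within plates, hippocampus against cortex gave no call (0.0% of all genes), a median of 0.19 against 0.07 for all genes and 4 genes above in every mouse (1.13%). Cerebellum against facial nucleus gave none (0.00437% of all genes) and a median of -0.28 against -0.09, and Rps4x, the X-linked member of the Rps4 pair, had the lowest p there. It had 7.35, 10.5, 13.1 and 14.3 CPM in cerebellum and 24.3, 37.3, 37.4 and 28.2 in facial nucleus, every mouse below as in 1.75% of all genes (log2 fold change -1.50, SE 0.623, edgeR adjusted p = 0.422), and was the gene DESeq2 called. Spinal cord against corpus callosum gave none (0.0% of all genes), with a median of -0.11 against -0.04. There 1 of 83 had an unadjusted edgeR p under 0.05, against 1504 of all 22907 genes.

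The other parts of the translation machinery were read from lists of genes by role. With TMM scaling, 3.08% of all genes rose in demyelination, 2.51% in remyelination and 0.14% at day 3. Changes in these lists are given with TMM alone. With spike-in library sizes the median of all genes was -1.55 in demyelination and -2.24 in remyelination, against -0.33 and -0.31 with TMM. How the listed genes stand with spike-in library sizes is not given here. Of 20 elongation factors and other TOP mRNAs, 12 rose in demyelination and 11 in remyelination, and 1, Eef1a1, at day 3. Eef1a1, which brings the tRNAs, had 2491 ± 154 CPM in demyelination, 1811 ± 186 in remyelination and 548 ± 139 in corpus callosum (log2 fold changes 2.16 and 1.73). At day 3 it had 880 ± 124 CPM against 357 ± 66.2 in facial nucleus (1.31, edgeR adjusted p = 0.0104). Eef2, which moves the ribosome on, had 1501 ± 17.8 CPM in demyelination against 314 ± 90.5 (2.23), and the poly(A)-binding Pabpc1 691 ± 62.0 against 137 ± 23.9 (2.30). The median of the list was 1.76 in demyelination.

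Of 21 initiation factors, again with TMM scaling, 5 rose in demyelination (Eif3a, Eif3c, Eif3i, Eif4g2 and Eif5a) and 2 in remyelination (Eif3c and Eif5). The 5 further subunits of initiation factor eIF3 on the list of TOP mRNAs are counted there, and all of them (Eif3e, Eif3f, Eif3h, Eif3k and Eif3l) rose in demyelination. Of 35 ribosome biogenesis genes, 2 rose in demyelination, nucleolin Ncl (1.58, edgeR adjusted p = 0.0110) and Nhp2 (3.03, 0.0330), and 2 in remyelination, Ncl and nucleostemin Gnl3. Of 19 genes of mTORC1 control none passed in demyelination and Lamtor4 rose in remyelination. None of 78 mitochondrial ribosomal protein genes passed in either, with medians of 0.82 and 0.65. Of the 4 ribosomal partners outside the naming rule or fused to ubiquitin-like proteins, the small subunit scaffold Rack1, also counted among the TOP mRNAs, rose, with 988 ± 163 CPM in demyelination and 711 ± 100 in remyelination against 186 ± 75.2 (2.39 and 1.94). Of 276 ribosomal protein pseudogenes 16 could be tested, with a median of 1.66 in demyelination, and none passed.

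Over the 40 sums, the gene whose level was most like the summed ribosomal protein level was Eef1a1 (Pearson r = 0.98 over 26600 genes compared), followed by Gm9843 (0.96), Tmsb4x (0.96), the pseudogene Rps16-ps2 (0.95) and Fth1 (0.95). Within the set, Rpl32 (0.97) was among the 3 genes that followed the sum of the others most closely, while Rps13 (-0.64) ran opposite to it. The sums share plates and scaling factors, so these are descriptions.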

How the data were processed

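The values deposited are raw read counts for each gene in each well, without normalisation. The authors used STAR 2.5.2b, featureCounts 1.5.1 and build GRCm38, per the submitters' processing notes. Annotation release, strand setting and treatment of reads that map to several places: not given in the sources used here. Names and transcripts come from GENCODE vM21, which held 48349 of 48709 gene identifiers; 65 of the 86 ribosomal protein genes had identical positions.

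A well was kept with at least 20000 gene counts, 500 genes, under 25% mitochondrial reads and under 50% spike-in reads (1644 of 1920 wells, of which 1900 are labelled as cells). Doublets were not called, as wells received single sorted cells. Counts were summed per mouse and group to 40 sums, and all replicates differed by more than counting error (lowest chi-square per degree of freedom 75.4 over 60 replicate pairs). Nothing in the labels says whether replicates were processed separately up to the sort, so p-values measure the spread between these sums.

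Sums were tested with edgeR 4.0.16 in R 4.3.3 (TMM, filterByExpr with a minimum count of 10 and a total of 15, robust quasi-likelihood F test, false discovery rate 0.05 over all genes tested). The 6 regions were fitted together, as were the axotomy groups with facial nucleus and the cuprizone groups with corpus callosum. The fit was also run on simulated data, and the outcome is not given here. Alternatives were DESeq2 1.42.0, limma 3.58.1 on mean log2 CPM per cell, other scalings, filters and groups in the fit, the replicate block and leaving out each replicate. Library totals alone, and leaving out cells with a Mki67 or Top2a read, were added after seeing the data. Thinning drew 20000 reads per cell with a fixed seed.

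The ribosomal protein genes, the lists of other genes and the tests were chosen with earlier results of these data known. Genes named are those past the threshold, the 5 highest and 5 lowest fold changes or levels per kilobase, members with a known role, and the 5 genes most like the summed level, apart from some genes that are not reported here; extremes of fold change are printed for demyelination, with those elsewhere given where a group or test turns on them.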

Additional observations from a re-analysis of the deposited data

Results flagged for a closer look

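In 5 of 62 groups of 4 mice examined, 1 mouse stood apart from the other 3 by Dixon's test (gap over range above the 95% critical value). Chance gives about 1 such group in 20. The share of gene counts from ribosomal protein genes in cortex was 0.299% in replicate 1, with the nearest other mouse at 0.259% and the lowest at 0.254%. In remyelination replicate 2 had the lowest share, 0.652%, with the nearest at 0.742%. Rps26 in untreated corpus callosum was 39.1 CPM in replicate 1 and at most 18.9 in the others. Rpl23 in demyelination was 74.5 CPM in replicate 2 and at least 129 in the others. Rps19 in remyelination was 94.5 CPM in replicate 2, with the nearest at 165 CPM. Without corpus callosum replicate 1 the log2 fold change of Rps26 in demyelination was 2.86, and every one of the 8 settings that left out a mouse kept Rps26 between 2.38 and 2.86.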

How the results depend on the processing

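Counts of ribosomal protein genes past the threshold moved with the setting. The number of all genes called is not set beside the counts below, so they are not read against a background. Regions: 2 with DESeq2, 0 to 1 leaving out a mouse. Cerebellum against facial nucleus: 1 with DESeq2. Day 3 against facial nucleus (2): 1 with upper-quartile scaling, with library totals alone and with the replicate block, 0 with spike-in library sizes, without cells with a Mki67 or Top2a read and with equal weight for each cell, 5 with all 10 groups in the fit, 10 with DESeq2, and 0 to 1 leaving out a mouse. Day 14 against facial nucleus: 2 with DESeq2. Day 14 against day 3: 1 with no filter on low counts, 1 with all 10 groups, 2 with DESeq2. Demyelination (20): 2 with spike-in library sizes, 11 with no filter, 9 with library totals alone, 35 with DESeq2, 10 to 17 leaving out a mouse. Remyelination (19): 4, 8, 6 and 36 in the same order, and 10 to 16. Demyelination effect minus day 3 effect: 4 with DESeq2. The cause of these shifts was not tested, beyond more genes being tested with no filter and fewer mice when 1 is left out.

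The replicate block gave 16 genes in demyelination, 13 in remyelination and no call in the other comparisons apart from day 3. None of 36 correlations between the deviations of same-numbered mice was over 0.1, the limit used here. The main tests therefore did not pair mice by number and treated the sums as independent. The design text has the untreated regions taken from the same animals. Whether a replicate number marks the same mouse across regions is not stated. Between untreated regions on a plate all 12 correlations were above 0 (0.00852 to 0.0711) and 10 of 12 were the highest for their number. Shared mice between regions are therefore not excluded by the limit of 0.1. In pairs with an injured group 13 of 24 correlations were above 0 (-0.035 to 0.0302) and 7 of 24 were the highest. With the block, as without it, no ribosomal protein gene passed between regions.

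With spike-in library sizes the remyelination median changed sign to -0.50, as did the fold changes of Rpl7 (-0.27), Rps9 (-0.27), Rps19 (-0.021), Rps3 (-0.17), Rps15a (-0.076), Rplp1 (-0.086), Rpl4 (-0.32), Rpl41 (-0.12) and Rpl8 (-0.46). No other alternative changed the sign of a gene that passed in demyelination, remyelination or at day 3. Leaving mitochondrial and Apoe reads out of the total gave shares of 0.858% in demyelination and 0.878% in remyelination; in the other groups and settings the share moved by less than its SD. At this depth 21 genes had no read in at least 1 sum, and the part of shared sequence in this was not tested.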
